A study of Mus musculus with 8 samples.

Results

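The genes described here are those of the lysosomal cathepsins Ctsa, Ctsb, Ctsc, Ctsd, Ctsf, Ctsh, Ctsl, Ctso and Ctsz and of legumain (Lgmn), a protease that works beside them. They were chosen by name, and all 10 were found among the 55276 gene symbols of the count table. All 10 also passed the filter on low counts. RNA-seq was done on cells of the esophageal epithelium of C57BL6 mice, 14 to 15 weeks old. No transgene is named, and the label field for treatment holds only the sorted Cyto-ID population. Live cells (DAPI-negative and positive for integrin beta-1, a surface protein of cells attached to the basement membrane) were sorted by Cyto-ID, a dye that marks autophagic vesicles, into a Low and a High population. By the library names, both populations came from the same 4 animals, 2 females (Female1, Female2) and 2 males (Male1, Male2), which gave 4 libraries in each. The question put to the data was whether the transcripts of these proteases differ between the populations.

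Cathepsins are made as inactive precursors, receive a mannose 6-phosphate tag in the Golgi and are carried by receptors to endosomes and lysosomes, where acid and cleavage activate them. There they break down proteins that arrive by endocytosis and by autophagy. Most are cysteine proteases of the papain family, while Ctsd encodes an aspartic protease and Ctsa a serine carboxypeptidase, and in stratified epithelia lysosomal proteases also take part in the turnover of proteins during differentiation.

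The libraries held 26285150 to 29301054 counts, and 17344 genes were tested. The fractions differed over much of the transcriptome, with 48.7% of the tested genes called, which is 23.4% higher in High and 25.3% lower, by edgeR's quasi-likelihood test at an adjusted p under 0.05. The labels call both populations basal cells. Of 8 basal keratinocyte markers all 8 were lower in High, with a summed level of 20628 to 24516 CPM (counts scaled to a common library size) in Low and 2721 to 4390 in High. All 9 suprabasal markers were higher, from 8603 to 25523 CPM in Low and 140808 to 241573 in High. In bulk libraries fewer cells of a type and less RNA per cell cannot be told apart, and the part of this shift in the values below was not tested. The summed markers of macrophages, fibroblasts, endothelium and muscle were lowest in the High library of Male2 and next lowest in that of Female2, and both libraries of Female2 carried gastric markers. The p-values come from a fit with sex and fraction and no animal term. They measure the spread among libraries within a fraction and sex, not the spread of the paired differences among the 4 animals.

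Ctsd, Ctsa and Ctsb rose in High, Ctso and Ctsf fell, and Ctsc, Ctsh, Ctsl, Ctsz and Lgmn were not called in either direction. The 3 that rose had all 4 High libraries above all 4 Low, which is 3 of 10 members against 23.6% of all tested genes. The 2 that fell had all 4 below, 2 of 10 against 24.9%, so both shares are near the background. The members called, 5 of 10, are near the background of 48.7%, and the 3 higher and 2 lower are likewise near the 23.4% and 25.3% of all tested genes. The median log2 fold change was 0.10 over the 10 genes and −0.09 over all genes tested.

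**Figure D1:**
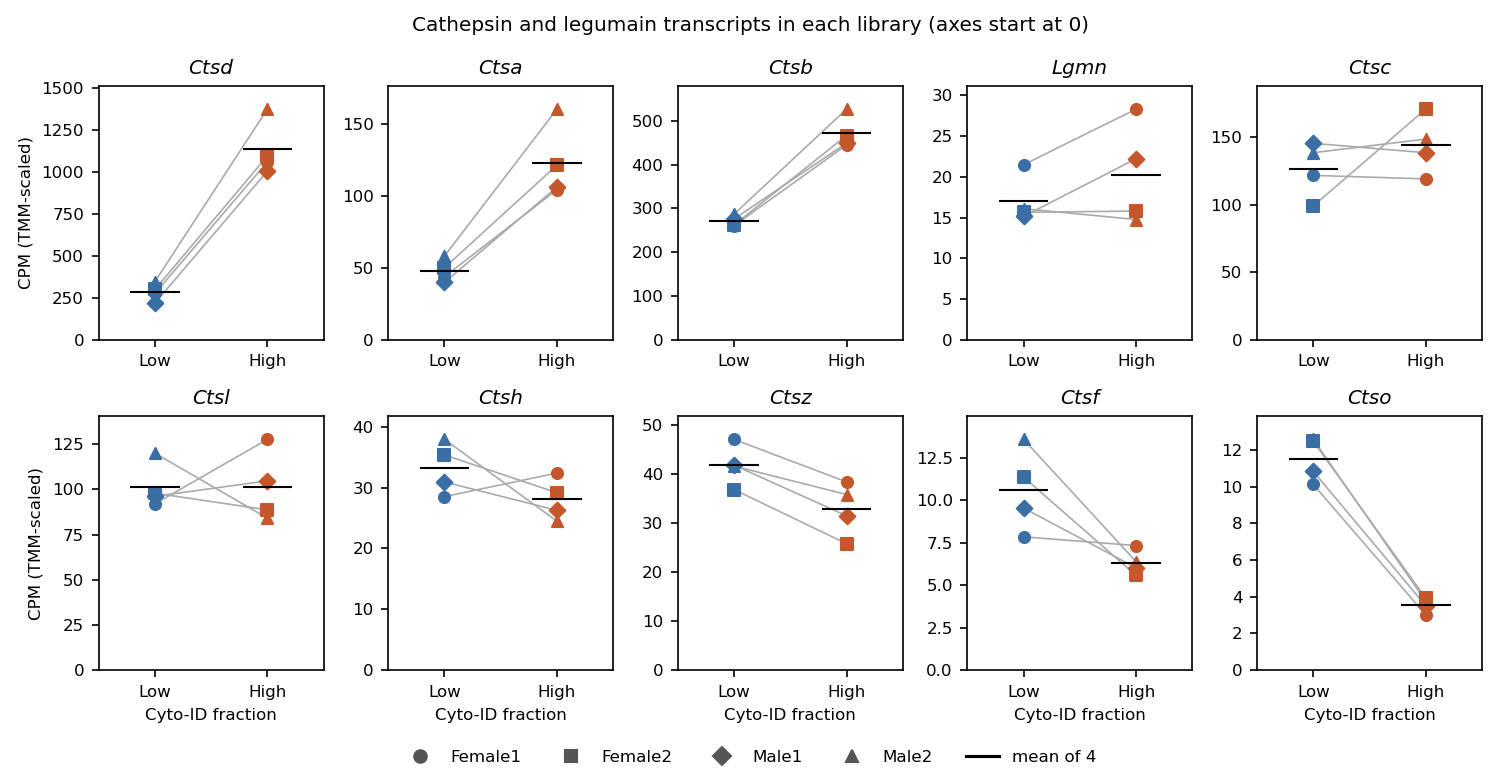
Level of each of the 10 transcripts in the Low (blue) and High (orange) library of each animal, in TMM-scaled CPM on axes that start at 0, with 1 marker shape per animal, grey lines joining the libraries of an animal and a black bar for the mean of 4. Ctsd, Ctsa, Ctsb, Ctsf and Ctso show no overlap between the fractions, and the lines of Ctsl, Ctsh, Ctsc and Lgmn run both up and down.

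Ctsd encodes the main aspartic protease of the lysosome. It lies on the minus strand of chromosome 7 (GRCm38, 142375911 to 142388038). Its level in Low was 276.5, 300.0, 218.2 and 346.7 CPM in Female1, Female2, Male1 and Male2, and in High it was 1062, 1097, 1007 and 1377 CPM in the same order. Every High library thus lay far above every Low library. Male2 was highest in both fractions on this scale, while on total counts the highest in High was Female1, at 1001 CPM against 868 to 935 in the others. The log2 fold change was 1.99 (SE 0.20, edgeR adjusted p 4.1e-05), a 3.97-fold rise. The gene Gm49369, which shares exon bases with Ctsd on the same strand, had at most 1 count in any library.

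Ctsa encodes protective protein, a carboxypeptidase that also shields the sialidase Neu1 and beta-galactosidase in a complex. The Low libraries held 43.8, 50.0, 39.9 and 58.2 CPM of Ctsa and the High libraries 104.3, 121.3, 106.0 and 160.2 CPM. Again the fractions were apart, and Male2 was highest in both. Ctsa rose 2.55-fold, a log2 fold change of 1.35 with an SE of 0.18 (edgeR adjusted p 0.000233). Its exons (chromosome 2, 164832873 to 164841032, plus strand) overlap those of Neurl2 and Pltp on the other strand. Neurl2 had at most 38 counts, and Pltp changed the other way, from 57.4 ± 11.7 to 4.76 ± 1.41 CPM (SD, n = 4; log2 fold change −3.59). Whether the counting used the strand is not given in the sources used here.

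Ctsb encodes an abundant cysteine protease that cuts both within proteins and at their carboxyl end. It was the most even member among the Low libraries, at 260.8, 262.5, 276.0 and 286.8 CPM. In High it reached 445.1, 466.4, 449.3 and 526.9 CPM. No High library came near the Low ones on this scale, and the log2 fold change was 0.80 (SE 0.14, edgeR adjusted p 0.000988), or 1.74-fold. Scaled by total counts only, it was 0.23 (adjusted p 0.100), which is no call. Ctsb (chromosome 14, 63122462 to 63145923, plus strand) shares up to 774 exon bases with Fdft1, the gene of squalene synthase, on the other strand. Fdft1 rose from 45.9 ± 11.5 to 420 ± 87 CPM (SD, n = 4; log2 fold change 3.19), and how many reads the 2 genes shared was not tested.

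Ctso, a papain-family cathepsin, fell most among the members. Its Low libraries had 10.1, 12.5, 10.8 and 12.6 CPM, from 328 to 454 counts, and its High libraries 3.0, 3.9, 3.5 and 3.8 CPM, from 73 to 92 counts. The 4 High values lay within 1 CPM of each other and all below the Low values. The log2 fold change was −1.70 (SE 0.17, edgeR adjusted p 4.1e-05), which makes Low 3.25-fold higher. Ctso stands on chromosome 3 (81932601 to 81956725, plus strand), and no other annotated exon overlaps it.

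Ctsf, another papain-family protease, with a long propeptide, fell less and less evenly (chromosome 19, 4855130 to 4860918, plus strand). It measured 7.8, 11.4, 9.5 and 13.6 CPM in Low and 7.3, 5.6, 6.0 and 6.4 CPM in High. The fractions did not overlap, but Female1 differed little, from 7.8 to 7.3 CPM. The log2 fold change was −0.74 (SE 0.20, edgeR adjusted p 0.0127). Leaving out the Low library of Female2 or of Male2 ended the call (adjusted p 0.0694 and 0.0681), as did leaving out both libraries of Female2 or of Male2 (0.124 and 0.0793).

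Ctsz, also called cathepsin X, removes single amino acids from the carboxyl end (chromosome 2, 174427493 to 174439039, minus strand, with 10 exon bases shared with Nelfcd). It was lower in High in all 4 animals, with 47.0, 36.8, 41.7 and 41.5 CPM in Low and 38.3, 25.7, 31.4 and 35.8 CPM in High. The ranges overlapped, since High Female1 lay above Low Female2. The log2 fold change was −0.35 (SE 0.16, edgeR adjusted p 0.0949). With the animal as a block it was −0.36 with an adjusted p of 0.0205, which is a call, and without the High library of Female1 it was −0.46 with an adjusted p of 0.0431.

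Ctsc (chromosome 7, 88278085 to 88310888), Ctsh (chromosome 9, 90054152 to 90076089), Ctsl (chromosome 13, 64359337 to 64370890) and Lgmn (chromosome 12, 102394084 to 102439813) gave no call. Ctsc encodes dipeptidyl peptidase 1, which activates serine proteases of granules, and it had 121.8, 99.2, 145.6 and 138.6 CPM in Low and 119.2, 171.0, 138.6 and 148.7 CPM in High. Its ranges overlapped, and only in Female2 was the gap between the fractions wide. The log2 fold change was 0.20 (SE 0.17, edgeR adjusted p 0.349), with an approximate 95% interval from −0.12 to 0.53.

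Ctsh, an aminopeptidase, had 28.5, 35.4, 30.9 and 37.9 CPM in Low and 32.4, 29.2, 26.3 and 24.5 CPM in High. It was lower in High in 3 of the 4 animals, Female1 being the exception, and the ranges overlapped. The change of −0.25 (SE 0.15, edgeR adjusted p 0.202) had an interval from −0.54 to 0.04.

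Ctsl encodes an endopeptidase with a known part in epidermal differentiation. It had 91.9, 97.8, 96.1 and 120.0 CPM in Low and 127.6, 88.6, 104.7 and 84.1 CPM in High. On this scale High was above Low in Female1 and Male1 and below it in Female2 and Male2, and Male2 held the highest Low value and the lowest High value. The interval of the log2 fold change ran from −0.34 to 0.34 (edgeR adjusted p 0.990), and on total counts the change was −0.54 (adjusted p 0.0587).

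Lgmn encodes legumain, which cuts after asparagine and processes several cathepsins. It had 21.5, 15.6, 15.2 and 16.1 CPM in Low and 28.3, 15.8, 22.2 and 14.8 CPM in High. Female1 was highest in both fractions and the ranges overlapped. The log2 fold change was 0.25 (SE 0.22, edgeR adjusted p 0.383), with an interval from −0.17 to 0.67.

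The differences between the libraries of 1 animal separate the members further. On the log2 CPM scale the High minus Low difference of Ctso lay between −1.73 and −1.61 in the 4 animals, with an SD of 0.06. Ctsb (0.70 to 0.88, SD 0.08), Ctsa (1.25 to 1.46, SD 0.10), Ctsz (−0.51 to −0.22, SD 0.13) and Ctsd (1.87 to 2.21, SD 0.14) came next. The spread was wider for Ctsf (−1.08 to −0.10, SD 0.45), Ctsl (−0.51 to 0.47, SD 0.42) and Ctsc (−0.07 to 0.79, SD 0.40).

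The scaling of the libraries moves every one of these changes by a similar amount. TMM scaling, used above, corrects for a few transcripts that take a large part of a library, and Krt4 and Krt13 alone took 0.858% to 2.53% of all counts in Low and 10.8% to 14.0% in High. Without TMM scaling the median of all genes moved by −0.55, from −0.09 to −0.64, and 20.5% of the calls were higher in High in place of 48.0%. How much of this shift comes from Krt4 and Krt13 was not tested. Ctsd (1.42), Ctsa (0.77), Ctso (−2.27) and Ctsf (−1.29) kept their calls and directions on total counts. Ctsc turned to −0.37 (edgeR adjusted p 0.0438) and Lgmn to −0.27, and Ctsh (−0.80) and Ctsz (−0.90) became calls.

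**Figure D2:**
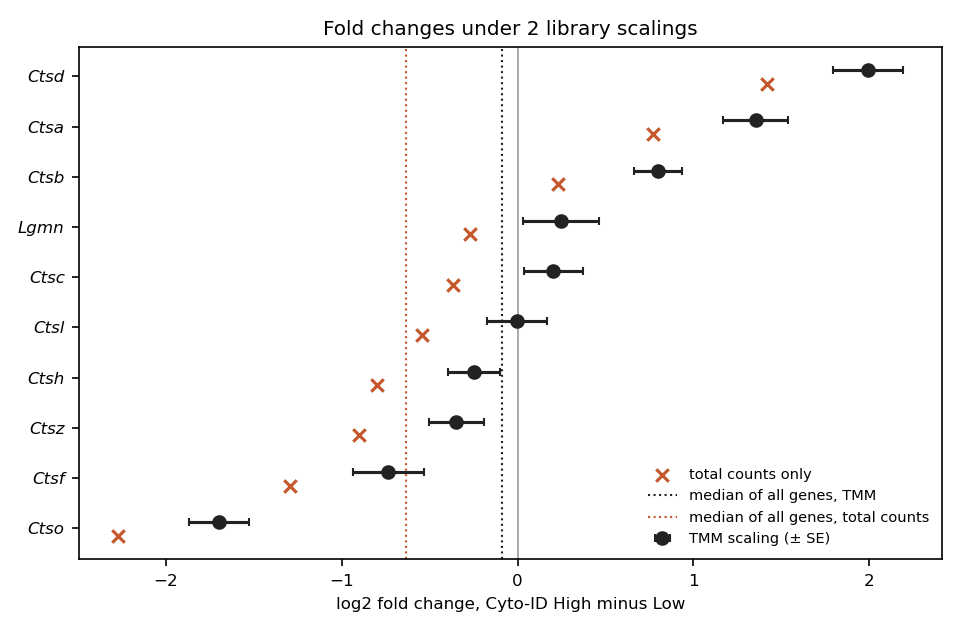
Log2 fold change, High minus Low, of each member under TMM scaling (black points, bars ± SE) and under total counts only (orange crosses), with dotted lines at the median of all tested genes under each. Under each scaling Ctsd, Ctsa, Ctsb, Lgmn, Ctsc and Ctsl lie to the right of that scaling's median and Ctsh, Ctsz, Ctsf and Ctso to the left of it.

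Ratios within a library do not depend on this scaling. The ratio of Ctsd to Ctsb counts was 1.06, 1.14, 0.791 and 1.21 in the Low libraries of Female1, Female2, Male1 and Male2 and 2.39, 2.35, 2.24 and 2.61 in the High libraries. The lowest High ratio was thus well above the highest Low ratio. The ratio of Ctsd to Ctsl counts ran from 2.27 to 3.07 in Low and from 8.32 to 16.4 in High.

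To compare levels between genes, CPM was divided by the length of all annotated exons of a gene. That length joins the exons of every annotated transcript, from 1441 bases for Ctsz to 6489 for Ctsl. It can exceed the length of the transcripts made in these cells, so shares and order between genes depend on the annotation. On that scale Ctsd made up 46.1% ± 4.5 of the summed level of the 10 genes in Low and 72.2% ± 1.8 in High (SD, n = 4). The smallest share in High, 70.9%, was above the largest in Low, 49.4%. Ctsb came second in both fractions, with 17.2% ± 1.6 in Low and 11.7% ± 0.5 in High. Ctsa held nearly the same share in both, 3.87% ± 0.28 and 3.88% ± 0.37. Ctsz went from 11.2% ± 1.6 to 3.43% ± 0.61 and Ctso from 0.860% ± 0.079 to 0.104% ± 0.013.

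**Figure D3:**
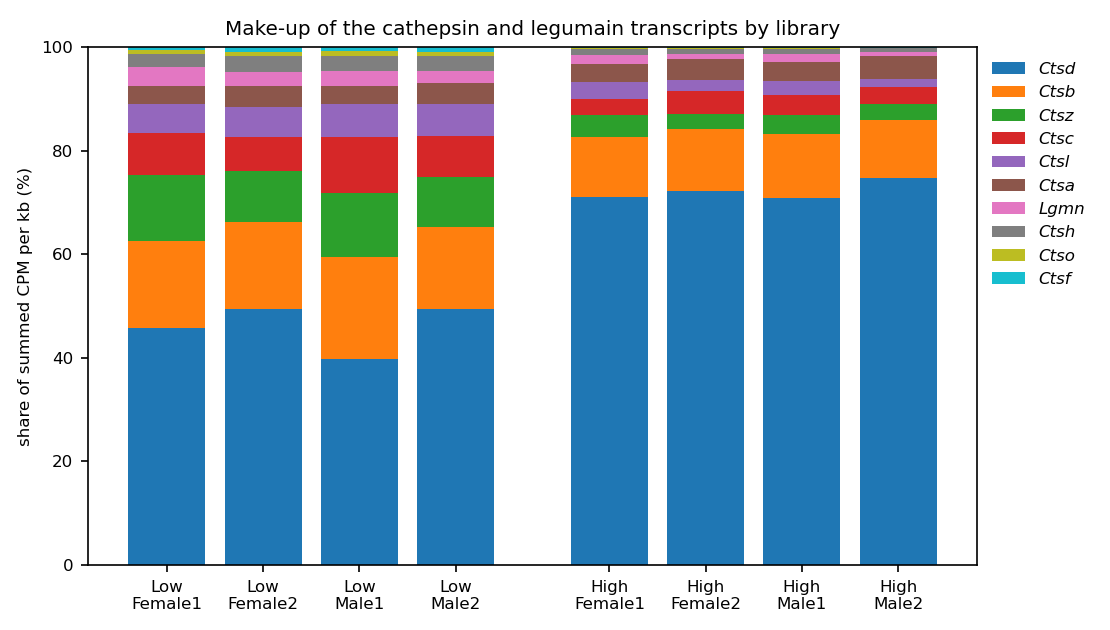
Share of each member in the summed CPM per kb of the 10 genes, in percent, 1 stacked bar per library. Ctsd takes 39.8% to 49.4% of the bar in the 4 Low libraries and 70.9% to 74.7% in the 4 High libraries.

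In Low the order by CPM per kb was Ctsd (121 ± 23), Ctsb (44.9 ± 2.0), Ctsz (28.97 ± 2.90), Ctsc (21.7 ± 3.6), Ctsl (15.6 ± 1.9), Ctsa (10.2 ± 1.7), Ctsh (7.38 ± 0.94), Lgmn (7.36 ± 1.27), Ctso (2.25 ± 0.24) and Ctsf (2.10 ± 0.49). Ctsc and Ctsl, Ctsh and Lgmn, and Ctso and Ctsf overlapped in range, while the other neighbours did not. In High, Ctsd stood at 483 ± 70 and Ctsb at 78.0 ± 6.2 CPM per kb. Ctsa (26.1 ± 5.5) came level with Ctsc (24.9 ± 3.7) and Ctsz (22.8 ± 3.8), whose ranges overlapped. Ctsl (15.6 ± 3.0), Lgmn (8.73 ± 2.71), Ctsh (6.24 ± 0.77), Ctsf (1.26 ± 0.15) and Ctso (0.693 ± 0.077) followed, where the ranges of Ctsz and Ctsl and of Lgmn and Ctsh also overlapped.

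The summed level of the 10 transcripts was 947 ± 85 CPM in Low and 2067 ± 216 in High (TMM-scaled, SD, n = 4), and 1151 ± 89 against 1692 ± 116 on total counts. Without Ctsd it was 661 ± 47 and 932 ± 52 CPM with TMM scaling, but 803 ± 28 and 766 ± 74 on total counts. Most of the gain of the sum was Ctsd under either scaling.

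The 250 bases before each RefSeq transcription start were searched for the E-box CACGTG. This motif reads alike on both strands and forms the core of the CLEAR element bound by TFEB and TFE3, factors known to drive lysosomal genes. The table used has 10 such windows for 8 members, since Ctsa and Lgmn have 2 starts each, and no entry for Ctsb and Ctsh. The motif stood in 5 of the 10 windows, against 6.02% of 32851 windows in all, and each of the 5 belonged to another gene, which makes 5 of 8 genes against 6.86% of 27025. The sites are shown with up to 12 bases on either side, from RefSeq on GRCm38.p6, read in the direction of the gene with the motif in capitals, since they allow the called and uncalled members to be compared.

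Ctsd, nearer site (chr7:142387908-142387937, minus strand): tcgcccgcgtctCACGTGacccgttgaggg
Ctsd, farther site (chr7:142388055-142388077, minus strand): tccccCACGTGacctgtatccag
Ctsa (chr2:164833749-164833772, plus strand): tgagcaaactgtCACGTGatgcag
Lgmn (chr12:102439124-102439153, minus strand): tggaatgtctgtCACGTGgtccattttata
Ctsl (chr13:64370739-64370768, minus strand): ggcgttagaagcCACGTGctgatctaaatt
Ctsf (chr19:4855074-4855103, plus strand): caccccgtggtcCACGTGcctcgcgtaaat

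Ctsd held 2 sites, 98 and 245 bases before its start. The site of Ctsa lay 12 bases before the downstream of its 2 starts, and the window of its upstream start had none. Lgmn likewise had a site, 49 bases before the start, at its downstream start and none at the upstream one. Those of Ctsf and Ctsl were 79 and 236 bases before their starts. The sites of Ctsa and Ctsl and the nearer one of Ctsd fall in exons of other annotated transcripts of the same gene. The longer palindrome TCACGTGA stood in 1 window each of Ctsa and Ctsd, 2 of the 8 genes, against 0.907% of all genes. GTCACGTG, on either strand and overlapping the E-box, stood in 1 window each of Ctsa, Ctsd and Lgmn, 3 of the 8 genes, against 2.11%. Among the genes with a CACGTG were Ctsd and Ctsa, which rose, Ctsf, which fell, and Lgmn and Ctsl, which gave no call. The windows of Ctsc, Ctso and Ctsz had none of these letters.

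Of the MiT/TFE factors themselves, Tfe3 rose and Tfeb and Mitf gave no call, and Tfec was too low to test. Tfe3 had 58.9, 46.0, 66.4 and 66.4 CPM in Low and 80.1, 113, 102 and 179 CPM in High, with no overlap and Male2 again highest in High. Its log2 fold change was 0.98 (SE 0.20, edgeR adjusted p 0.0029). Tfeb, at 13.5 to 16.1 CPM in Low and 9.42 to 17.3 in High, changed by −0.30 (adjusted p 0.227), on total counts by −0.90 (adjusted p 0.000569) and without the High library of Male2 by −0.51 (adjusted p 0.0336). Mitf, near 1 CPM, changed by −0.57 (adjusted p 0.215), and on total counts by −1.09 (adjusted p 0.0373).

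The endogenous inhibitors of the cysteine cathepsins rose in 6 of 13 tested cases and fell in none, where 23.4% of all tested genes were higher and 25.3% lower. The median of the 13 was 0.23, against −0.09 over all genes. Cst6, a cystatin of stratified epithelia that blocks cathepsin L and legumain, went from 18.8, 16.7, 9.75 and 18.9 CPM in Low to 108, 95.0, 87.5 and 111 CPM in High. That is a rise of 2.66 (SE 0.22, edgeR adjusted p 1.83e-05) with fractions far apart, in the same libraries in which its targets Ctsl and Lgmn gave no call. Serpinb13, a serpin that inhibits cathepsins L and K, rose by 4.37 (SE 0.53, edgeR adjusted p 0.000121), from 0.185 to 1.06 CPM in Low and from 11.1 to 17.3 CPM in High. Serpinb3a (4.00), Serpinb3b (3.09) and Serpinb3c (4.01) also rose. Their sequences are close copies of each other, so that reads may be split among them. Csta1, a stefin, rose by 0.98 (adjusted p 0.00386), a call that was lost on total counts (0.46, adjusted p 0.174). The broadly expressed inhibitors Cst3 and Cstb were not called (0.23 and 0.20) and were negative on total counts (−0.33 and −0.35). The stefins Stfa1, Stfa2 and Stfa3, close copies as well, and Ctla2a gave no call. Stfa3 had 89.3, 33.8, 59.6 and 2.32 CPM in High, the order of the macrophage markers given further on. Stfa1, Stfa2 and Ctla2a had that order in High too.

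Genes of the list for mannose 6-phosphate sorting, which also holds Sort1, were called in 7 of 9 cases, 5 higher and 2 lower. Of all tested genes 48.7% were called, 23.4% higher and 25.3% lower. The median of the 9 was 0.43, against −0.09 over all genes. The transferase subunits Gnptab and Gnptg, which start the tag, changed by 1.20 (edgeR adjusted p 0.00138) and 0.43 (adjusted p 0.023), and Nagpa, which uncovers it, by 1.04. The call of Gnptg was lost in 9 of 19 alternatives, among them total counts, where its sign turned (−0.13). The cation-dependent receptor M6pr changed by 0.34 without a call (adjusted p 0.068), was called with RLE factors, with DESeq2 and with at least 10 counts in every library, and on total counts was at −0.23. The larger receptor Igf2r fell by 0.46 on the log2 scale (adjusted p 0.017), a call lost in 5 alternatives.

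Sort1, the gene of sortilin, which can carry cathepsins without the sugar tag, rose most in this list. It had 12.1, 19.2, 7.11 and 23.2 CPM in Low and 138, 205, 191 and 217 CPM in High, and the log2 fold change was 3.60 (SE 0.36, edgeR adjusted p 3.99e-05). The adaptors that load these receptors into vesicles split, with Gga1 at 0.97 (adjusted p 0.0014) and Gga2 at −2.74 (adjusted p 1.27e-05), while Gga3 was not called (−0.35, but −0.91 with an adjusted p of 0.00109 on total counts and −0.43 with 0.0279 without the Low library of Male2). Gga2 went from 34.2, 48.2, 46.8 and 46.5 CPM in Low to 7.41, 5.75, 6.02 and 7.05 CPM in High, with no overlap. Exons of Gnptg overlap Unkl, those of Gga3 overlap Mrps7, and exons of Gnptab, Sort1 and Gga2 overlap predicted genes, all on the other strand.

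Among other lysosomal peptidases and partners of Ctsa, 3 of 7 rose and none fell, against 23.4% and 25.3% of all tested genes, and the median was 0.06, against −0.09. Scpep1, a carboxypeptidase of the same family as Ctsa, rose by 1.59 (SE 0.14, edgeR adjusted p 2.61e-05), Dpp7 by 0.69 (adjusted p 0.00239) and Tpp1 by 0.51 (adjusted p 0.019). On total counts Dpp7 was at 0.13 and Tpp1 at −0.07, neither a call, and Tpp1 lost its call in 4 further alternatives. The complex partners of Ctsa gave no call, Neu1 at 0.06 (adjusted p 0.803) and Glb1 at −0.27 (adjusted p 0.349), although Ctsa itself rose. On total counts Glb1 and Prcp were called lower, at −0.87 (adjusted p 0.00429) and −0.56 (adjusted p 0.0161). Exons of Scpep1 overlap Scpep1os on the other strand, and those of Glb1 overlap Tmppe on the same strand.

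**Figure D4:**
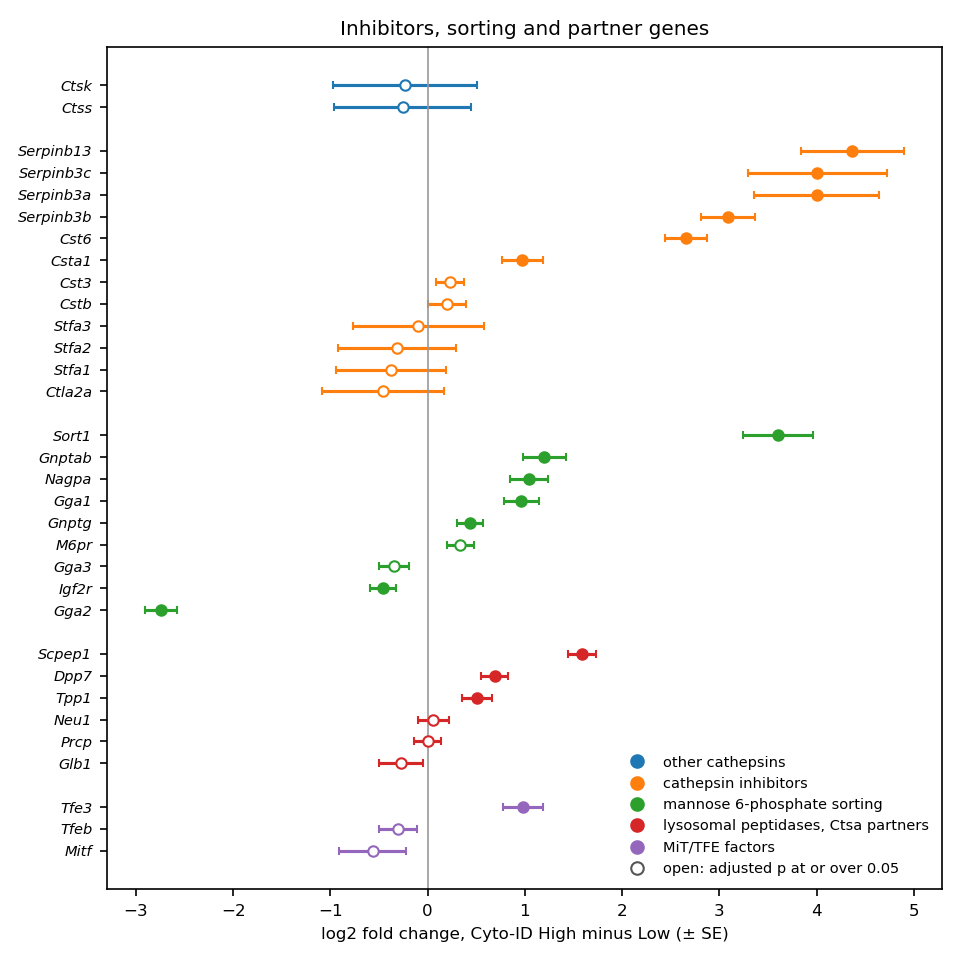
Log2 fold change, High minus Low (bars ± SE), of the named inhibitors, sorting genes, peptidases, factors and other cathepsins, coloured by list, with open circles for genes that were not called. Serpinb13 (4.37) is farthest to the right and Gga2 (−2.74) farthest to the left.

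Cathepsins of other cell types were few. Of 14 further cathepsin genes 8 had no count in any library and 3 could be tested, with no call. Ctss, a protease of antigen-presenting cells, had 555, 408, 281 and 324 counts in Low and 497, 163, 353 and 5 in High. Ctsk, best known from osteoclasts and also made by fibroblasts, had 470, 421, 268 and 289 counts in Low and 437, 125, 370 and 3 in High. Both were near 0 in High Male2, and in High Female1 and Male1 their counts lay within the range of the Low libraries. Within Male1 alone, High was above Low by 0.62 (Ctss) and 0.76 (Ctsk) in log2 CPM. Ctse, a gastric aspartic protease below the level set for named genes and singled out after its values were seen, was highest in High Female2, at 60 counts, where the gastric markers were highest too.

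The levels of these cells' markers went along with some members in High. The summed level of 15 macrophage and dendritic cell markers was 165, 57.7, 115 and 7.92 CPM in High Female1, Female2, Male1 and Male2, and 99.4 to 156 CPM in Low. None of the 15 was at 0 in High Male2, and the most abundant there, Cd74, had 3.65 CPM. The 6 fibroblast markers ran the same way, at 456, 147, 323 and 36.6 CPM in High. Of 8 T and NK cell markers 7 were at 0 in High Male2. On the TMM scale 2 of the 10 members, Ctsl and Lgmn, had the same order over the 4 High libraries as the macrophage list, Female1 highest, then Male1, Female2 and Male2. On total counts Ctsh and the called members Ctsb and Ctsf had this order too, which makes 5 of the 10. In Male2, with that list at 7.92 CPM, Ctsl was at 84.1 and Lgmn at 14.8 CPM. All 5 called members remained called without this library, Ctsf with an adjusted p of 0.0301. On the TMM scale the summed suprabasal markers ran in the reverse order in High, from 140808 CPM in Female1 to 241573 CPM in Male2. The share of all genes with the order of the macrophage list was not counted. The part of non-epithelial cells, or of the suprabasal shift, in the values of Ctsl, Lgmn, Ctsh, Ctsb and Ctsf was not tested further.

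**Figure D5:**
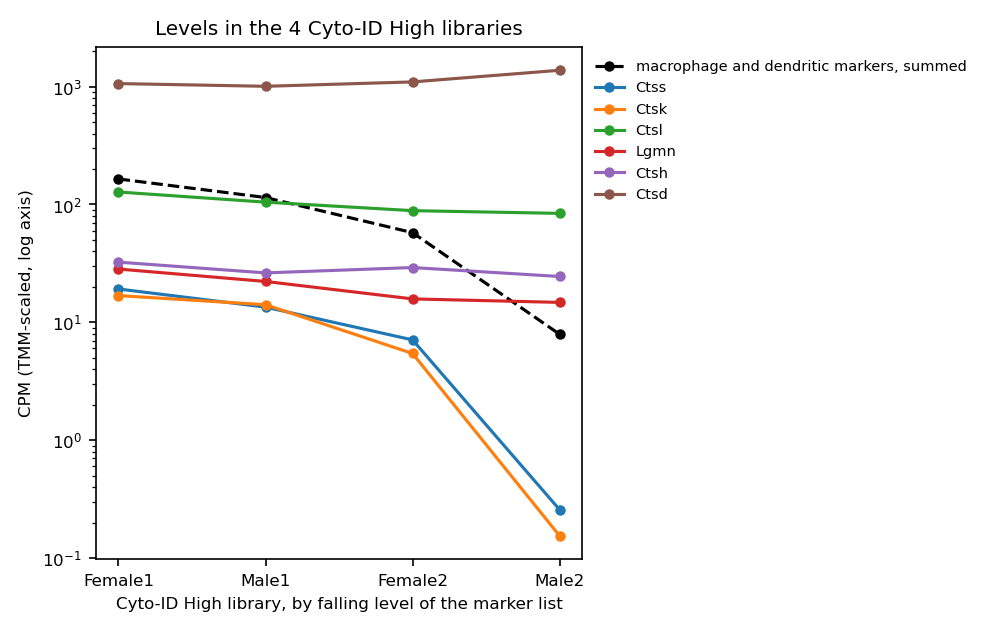
CPM on a log axis in the 4 High libraries, ordered by the summed macrophage and dendritic cell markers (dashed), for Ctss, Ctsk, Ctsl, Lgmn, Ctsh and Ctsd. From Female1 to Male2 the markers go from 165 to 7.92 CPM and Ctss from 19.2 to 0.257, while Ctsl goes from 127.6 to 84.1. Ctsd goes from 1062 to 1377 with the TMM scaling drawn here, but from 1001 to 935 on total counts.

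No difference between the sexes was found in these genes. The interaction of sex and fraction gave no call in edgeR among all genes (0%, with 19 at an unadjusted p under 0.05), and for the members it lay between −0.39 (Ctsh) and 0.18 (Ctsa) on the log2 scale. Between male and female animals 0.0203% of the tested genes were called, none of them a member, and the members differed by −0.28 (Lgmn) to 0.17 (Ctsc). With 2 animals of each sex the standard errors of the interaction were 0.30 to 0.47, so differences of that size would not have been seen.

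The genes whose profile over the 8 libraries was most like that of Ctsd, each centred on its own mean, were sought among 10006 genes. They were Tmem40, Guk1, Gfod1, H2aj and Sytl1, with root mean square differences of 0.0645, 0.0796, 0.0928, 0.0945 and 0.110 in log2 CPM. Tmem40 had 26.4 to 38.8 CPM in Low and 114 to 149 in High, and none of the 5 is a lysosomal protease. The nearest member was Ctsa, at 0.336.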

How the data were processed

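The authors deposited raw counts per gene symbol for 8 libraries, which are whole numbers with unequal library totals. STAR 2.7.3, DESeq2 and the build GRCm38 are named per the submitters' processing notes, with no role given. The counting tool, the annotation and the use of strand are not given in the sources used here, so reads of overlapping or near-identical genes are uncertain. Column names gave the animal and fraction of each library.

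The software was edgeR 4.0.16 under R 4.3.3: filterByExpr by fraction, TMM scaling, a quasi-likelihood fit with sex and fraction, and Benjamini-Hochberg adjustment over all genes tested, with a threshold of 0.05. Male and female animals were compared on the sum of each animal's Low and High counts. Alternatives used DESeq2 1.42.0, limma 3.58.1, other scalings and filters, and fewer libraries. The fit was also run on counts simulated from its own dispersions with few genes changed, a setting that does not test the scaling of these data. Log2 CPM used a prior count of 2. Exon lengths, overlaps and coordinates are from GENCODE M21 on GRCm38, and promoter windows from RefSeq on GRCm38.p6. No UMI was named, so counts are reads.

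The members and gene lists were chosen with earlier results of these data known. Named are all members, the genes of the lists with a mean of at least 1 CPM in either fraction, the most abundant markers, and the 5 genes nearest to the profile of the leading member per kb with at least 5 CPM. Libraries with the same animal name were taken as pairs, since the protocol sorts 1 suspension into both populations. The pairs entered the differences within an animal and the fits with the animal as a block, but not the main fit. Deviations of log2 CPM from the mean of the fraction, across genes, correlated at 0.43, 0.32, −0.02 and 0.28 within Female1, Female2, Male1 and Male2, and at −0.37 to 0.35 between animals, so the pair of Male1 rests on its name.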

Additional observations from a re-analysis of the deposited data

Results flagged for a closer look

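Of 100 groups of 4 libraries, 7 held a highest or lowest library that stood apart from the other three by Dixon's test, where chance gives about 1 in 20. Lgmn was 21.5 CPM in Low Female1, with the next library at 16.1. In the same library Stfa1 was 18.4 CPM (next 4.21) and Gga2 34.2 CPM (next 46.5). Cstb was 276 CPM in High Female1 (next 218), and Nagpa 26.4 CPM in High Male2 (next 18.3). The summed gastric markers were 19.1 CPM in Low Female2 (next 0.741) and 115 CPM in High Female2 (next 1.08). Without both libraries of Female2, Ctsd, Ctsa, Ctsb and Ctso were still called and Ctsf was not.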

How the results depend on the processing

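Of 42 named genes 14, among them the members Ctsa, Ctsd and Ctso, kept direction and side of the threshold in all 19 alternatives, and Serpinb13 and Ctla2a did in the 18 that gave them a value, since the filter of 10 counts per library left them out. The count of members higher in High was 3, or 2 on total counts. The count lower was 2, against 5 on total counts, 1 without both libraries of Female2, 1 without both of Male2, and 1 to 3 when each library was left out. Over all genes 8440 were called, against 7269 to 10708. With the animal as a replicate block 9336 genes were called, 8393 of them shared, and among the named genes only the call of Ctsz changed. Male against female gave 4 genes, 15 without a filter, 0 in High alone and 1 in Low alone.

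Signs turned where changes were small. Ctsl was 0.0655 with RLE and with DESeq2, 0.0534 without Female2 and 0.22 without Male2. On total counts Ctsc was −0.37, Lgmn −0.27, Cst3 −0.33, Cstb −0.35, Gnptg −0.13, M6pr −0.23, Tpp1 −0.0738, Prcp −0.56 and Neu1 −0.48, and Prcp was −0.0408 without a filter, −0.0103 with at least 10 counts and −0.0045 without Female2. Stfa3 was 0.0496 without Female2, and without Male2 it was 0.32, Ctsk 0.15 and Ctss 0.18. Leaving out 1 library at a time gave −0.15 to 0.13 for Ctsl, −1.14 to 0.33 for Stfa1, −1.13 to 0.0527 for Stfa2, −1.11 to 0.30 for Stfa3, −0.0560 to 0.0783 for Prcp, −1.33 to 0.17 for Ctsk, −1.21 to 0.16 for Ctss and −0.0170 to 0.16 for Neu1. The cause was not tested. In High Male2 Ctss and Ctsk had 5 and 3 counts, which limits the precision of their folds.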
